A study of Mus musculus with 42 samples.

Results

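The 7 genes described here encode the class II antigen presentation machinery of the mouse: H2-Aa, H2-Ab1, H2-Eb1, H2-DMa, H2-DMb1, Cd74 and Ciita. They were chosen by name, as the rows of a raw count table whose Ensembl identifiers map to these symbols, and not by their values. All 7 were present among the 37310 identifiers of the table and all 7 passed the filter on low counts, which kept 11624 genes. The counts came from RNA-seq of BMDM (bone-marrow-derived macrophages). Marrow of male mice of 7–10 weeks was cultured for 8–10 days in medium conditioned by L929 cells, which turns it into macrophages. Mice labelled KO carried a floxed Irf5 (interferon regulatory factor 5) on a C57BL/6 background together with LysM-Cre, a Cre recombinase inserted in Lyz2 and active in myeloid cells, and mice labelled WT were their littermates. Each genotype label was sampled in 7 conditions with 3 libraries each, 42 libraries in all. These were Control at 0, 2 and 24 h, palmitate (a saturated fatty acid, 0.2 mM) at 2 and 24 h, and bacterial lipopolysaccharide (LPS, 10 ng/ml) at 2 and 24 h.

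Class II molecules are dimers of an alpha and a beta chain that show peptides from engulfed material to CD4+ T cells. In the endoplasmic reticulum the invariant chain, encoded by Cd74, fills the groove of a new dimer and directs it to the endosome, where it is cut down to a short peptide that the H2-DM dimer then exchanges for an antigen. The chains, H2-DM and Cd74 are transcribed together by CIITA, a coactivator that binds no DNA itself and is recruited by factors sitting on the X and Y boxes of their promoters. In macrophages interferon gamma is the classical inducer of Ciita. BMDM kept without it hold little class II.

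The libraries held 2848793 to 7743442 counts, and 3 counts correspond to between 0.387 and 1.05 CPM, the count scaled to the depth of the library. Macrophage genes were abundant in every library, with Csf1r, the receptor of the growth factor that maintains macrophages, between 1622 and 2575 CPM. The targeted gene went against the labels. Irf5 was not lower in libraries labelled KO in any condition, and at Control 0 h it stood at 305 ± 24.2 CPM in KO and 220.5 ± 10.4 in WT (SD, n = 3 each). Whether the counted reads fall in the deleted part of the gene cannot be told from a count per gene, and groups are named here by their labels. Lyz2, which carries the Cre insertion, was called lower in libraries labelled KO at Control 0 h, at Control 2 h and after 2 h of LPS. The columns name groups and not animals, and all p-values measure only the spread between these libraries.

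H2-Aa (ENSMUSG00000036594) and H2-Ab1 (ENSMUSG00000073421) encode the alpha and beta chains of the I-A molecule. They lie beside each other in the class II region of chromosome 17, H2-Aa at chr17:34282744-34287823 on the minus strand and H2-Ab1 at chr17:34257689-34269419 on the plus strand (GRCm38, the build also called mm10). H2-Eb1 (ENSMUSG00000060586, chr17:34305867-34316674, plus) encodes the beta chain of I-E. Its partner gene is not functional in mice of the b haplotype, such as C57BL/6, and the pseudogene H2-Ea-ps had at most 1 count here, with 0 in 40 of the 42 libraries. H2-DMa (ENSMUSG00000037649, chr17:34119541-34139101, plus) and H2-DMb1 (ENSMUSG00000079547, chr17:34153072-34160230, plus) encode the peptide exchanger. Ciita (ENSMUSG00000022504, chr16:10480059-10528418, plus) and Cd74 (ENSMUSG00000024610) lie on other chromosomes.

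The promoters are shown because class II genes carry the X and Y boxes there. Windows of 250 bases before to 50 after the start, from RefSeq (GRCm38.p6), were at hand for H2-Aa, H2-Eb1, H2-DMa and H2-DMb1. They were searched on both strands for the X box, the Y box, the GAS element of interferon signalling and the E box. The Y box was searched as CCAAT, which reads ATTGG on the other strand, and the GAS element as TTCNNNGAA. The E box was searched as CACGTG, and the X box as the run in capitals in H2-DMb1 with 5 of its bases left free. The stretches with an X or Y box match in the 130 bases before the start are printed 5′ to 3′ on the strand of the gene, with the match in capitals. For H2-Aa it is chr17:34287824-34287953 (minus), for H2-Eb1 chr17:34305737-34305866 (plus), and for H2-DMb1 only the 28 bases around the X box, chr17:34153089-34153116 (plus), which the GENCODE annotation places inside an H2-DMb1 exon.
H2-Aa: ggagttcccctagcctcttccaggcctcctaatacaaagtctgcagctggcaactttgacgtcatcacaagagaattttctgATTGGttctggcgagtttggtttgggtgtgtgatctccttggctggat
H2-Eb1: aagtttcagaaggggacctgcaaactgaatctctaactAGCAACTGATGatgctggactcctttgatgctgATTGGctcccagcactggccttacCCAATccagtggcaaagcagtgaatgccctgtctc
H2-DMb1: tttaCCTAGTAACTGATGatgctaggct
The full X box motif matched H2-DMb1 alone among the 4 members, 98 bases before the start, and 0.289% of the 32851 windows in the table held it. A shorter form, the run in capitals furthest 5′ in H2-Eb1 with 1 base left free, was written after the promoters had been seen. It overlaps the full motif in H2-DMb1, matched H2-Eb1 too, 92 bases before the start, and was held by 0.158% of windows. A Y box match stood 48 bases before the start in H2-Aa, 59 and 35 in H2-Eb1, 61 in H2-DMb1 and 198 in 1 of the 2 windows of H2-DMa, whose other window held none. Of all windows 37.4% held one. No GAS or E box match was found in the windows of the 4 members, against 8.3% and 7.15% of all windows. A match is a run of letters and not a measured site.

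**Figure D1:**
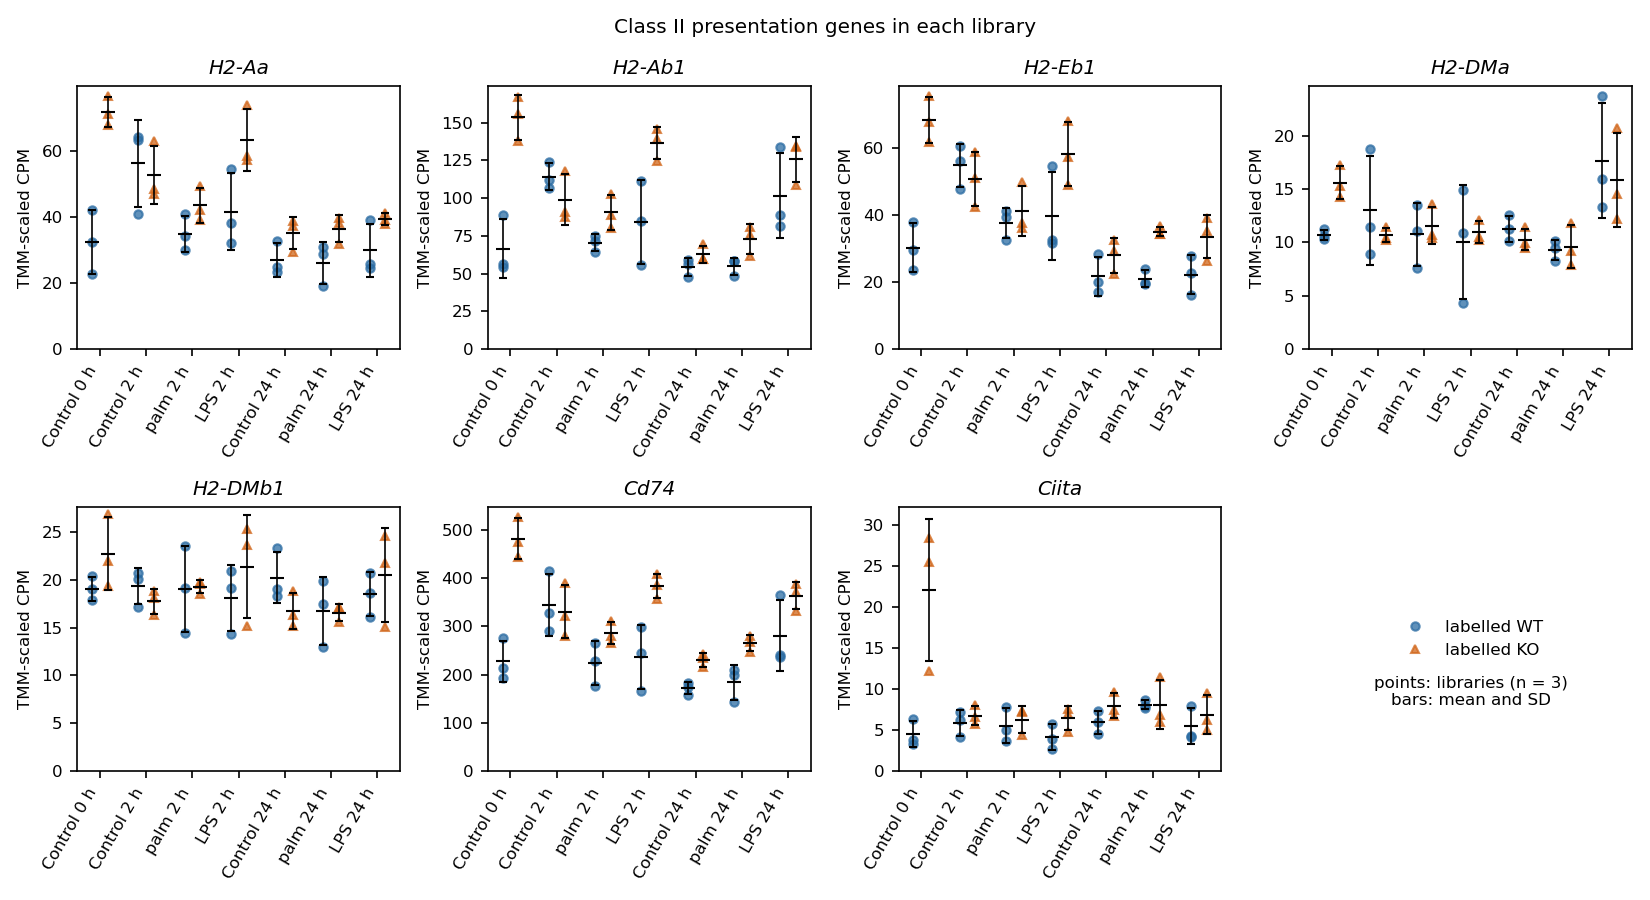
Level of each class II gene (TMM-scaled CPM, linear axes from 0) in the 3 libraries of each group, circles for libraries labelled WT and triangles for KO, with the mean and SD as black bars; palm is palmitate. The triangles of Control 0 h stand above the circles for every gene except H2-DMb1, and Ciita is at 12.2 to 28.4 CPM there against at most 11.5 elsewhere.

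Per kilobase of exon, Cd74 was the most abundant of the 7, with a median level of 162 CPM per kb over the 42 libraries (range 85.0 to 314). The median level per kb was 33.6 for H2-Ab1, 18.4 for H2-Eb1, 11.3 for H2-DMb1, 10.3 for H2-Aa, 3.23 for H2-DMa and 0.693 for Ciita. The exon length is the union of all annotated exons, which runs from 1679 bases for Cd74 to 9535 for Ciita. The chaperone of the dimers was thus counted at a higher level per kb than any chain, and the coactivator at the lowest.

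The genes differed in how far their levels moved between groups. The mean CPM of the highest group was 5.35 times that of the lowest for Ciita, 3.25 times for H2-Eb1, 2.83 for H2-Ab1, 2.82 for Cd74 and 2.74 for H2-Aa, but 1.89 for H2-DMa and 1.37 for H2-DMb1. Libraries labelled KO at Control 0 h were the highest group for all except H2-DMa, which was highest in WT LPS at 24 h. With the 14 groups ranked by mean, neighbours mostly overlapped. In 1 of 13 neighbouring pairs the libraries did not overlap for Cd74, for Ciita and for H2-Ab1, and in 0 of 13 for the other 4. For Cd74 and Ciita that pair was KO Control 0 h and the group below it.

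The first question was whether class II genes differed between genotype labels before any treatment. At Control 0 h the 3 chains, Cd74 and Ciita were higher in libraries labelled KO, the chains and Cd74 by about the same factor and Ciita by more. Cd74 stood at 275, 193 and 214 CPM in the WT libraries and at 476, 443 and 528 in KO. The 3 KO libraries all lay above the highest WT library, a 2.13-fold difference (log2 fold change 1.09, SE 0.15, adjusted p = 8.84e-07, edgeR quasi-likelihood F test). The chains it accompanies were higher by similar factors.

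H2-Ab1 was at 88.8, 56.5 and 54.6 CPM in WT and at 156, 137 and 167 in KO (2.32-fold, log2 1.21, SE 0.16, adjusted p = 2.76e-07). H2-Aa was at 42.2, 22.7 and 32.4 CPM in WT and at 76.8, 67.8 and 71.1 in KO (2.23-fold, log2 1.15, SE 0.18, adjusted p = 7.23e-06). H2-Eb1 was at 37.8, 23.5 and 29.5 CPM in WT and at 67.5, 61.6 and 75.4 in KO (2.26-fold, log2 1.18, SE 0.18, adjusted p = 4.76e-06). For each chain the groups did not overlap. WT library 1 had the highest level of the 3 WT libraries for all 3 chains.

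Ciita, the coactivator, was at 3.80, 6.31 and 3.31 CPM in WT and at 25.5, 12.2 and 28.4 in KO. These values rest on 21 to 40 counts in WT and 71 to 158 in KO, and the lowest KO library was still above the highest WT library. The difference was 4.92-fold (log2 2.30, SE 0.31, adjusted p = 6.09e-07). It was the largest of the 7, with a 95% confidence interval of 1.68 to 2.92 on the log2 scale.

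The peptide exchanger did not pass the test. H2-DMa was at 10.3, 11.2 and 10.6 CPM in WT and at 15.3, 14.2 and 17.3 in KO, without overlap (log2 0.54, SE 0.24, adjusted p = 0.136). H2-DMb1 overlapped between the labels, at 17.9 to 20.4 CPM in WT and 19.3 to 26.9 in KO (log2 0.25, SE 0.17, adjusted p = 0.382). Counts of H2-DMa share 360 exonic bases with Brd2 on the other strand, and whether counting used the strand is not stated, so its level is uncertain. Brd2 had up to 3135 counts in a library. Dexi, which shares 329 exonic bases with Ciita on the other strand, had at most 40, against 11 to 158 for Ciita. The level of Ciita is therefore uncertain in the same way.

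Thus 5 of 7 members were called higher and 0 lower at Control 0 h, where 6.40% of all genes tested were called higher. The libraries did not overlap for 6 of 7, against 14.2% of all genes with KO above WT. The median log2 fold change of the 7 was 1.15, and that of all genes 0.00. The 5 calls stood under every alternative tried, with any 1 library left out too. In bulk RNA, fewer cells of a type and less RNA per cell cannot be told apart.

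**Figure D2:**
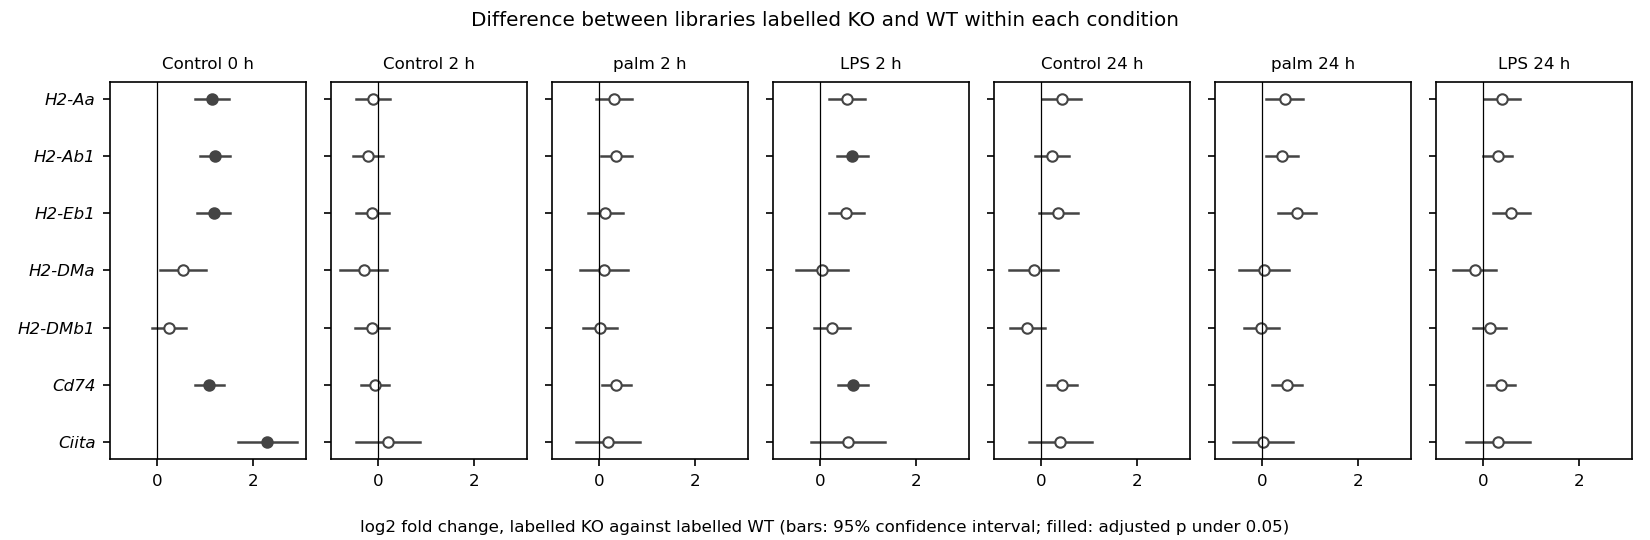
Log2 fold change of each class II gene, libraries labelled KO against WT, in the 7 conditions (palm, palmitate), with 95% confidence intervals; filled points passed an adjusted p of 0.05. The filled points are 5 at Control 0 h and 2 at LPS 2 h, and at Control 2 h every interval spans 0.

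Markers of other cells were measured beside this difference. The summed level of the 7 members was 321 to 465 CPM in WT and 777 to 918 in KO at Control 0 h. The 10 dendritic cell genes summed to 41.7–59.4 CPM in WT and 54.2–71.6 in KO, most of it Itgax, and the lowest adjusted p of the 6 tested was 0.0774 (edgeR). Itgax had up to 547 counts in a library. The highest counts of the other genes of this list were 43 for Ccr7, 25 for Siglech, 23 for Kit, 20 for Flt3 and 14 for Zbtb46. Dpp4, Clec9a, Cd209a and Xcr1 had at most 10, 8, 4 and 3 counts in any library. B cell genes, which mark another class II bearing lineage, summed to 7.90–12.5 CPM in WT and 3.64–7.83 in KO, the opposite direction. T and NK cell genes summed to at most 0.456 CPM in WT and to 0.545–1.59 in KO. Of the 7 listed, 0 passed the filter on low counts, and 4 had 0 counts in each of these groups. Ifng, the gene of the inducer interferon gamma, is on that list and had 0 counts in 39 of the 42 libraries and at most 2. Granulocyte genes summed to 45.9–53.1 CPM in WT and 73.6–83.7 in KO. Fibroblast genes summed to 0.387–0.883 CPM in WT and 42.8–69.4 in KO. All 3 tested (Col1a1, Col1a2 and Col3a1) were called higher, against 6.40% of all genes. Dcn, the other gene of that list, was too scarce to be tested, with 0 counts in 36 libraries. Macrophage genes summed to 14718–15222 CPM in WT and 10534–14271 in KO. Of the 7 listed, Csf1r was called higher, against 6.40% of all genes, and Lyz2, Cd68, Adgre1 and Mertk lower, against 6.06%. Lyz2, which carries the Cre insertion in the mice labelled KO, weighs most in these sums. It averaged 7983 CPM over all libraries, against 1950 for Csf1r, the next most abundant of the list. At Control 2 h, where no class II gene was called between the labels, fibroblast genes summed to 1.16–58.0 CPM in WT and 72.8–121 in KO, and dendritic cell genes to 33.5–40.3 and 60.6–76.8. Granulocyte genes summed to 19.3–32.7 CPM in WT and 65.1–128 in KO there, with 4 of the 5 tested called higher, against 0.232% of all genes. Macrophage genes summed to 14198–14838 CPM in WT and 10359–11191 in KO, with Lyz2 called lower, against 0.258%. The part of these cells in the class II difference was not tested.

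**Figure D3:**
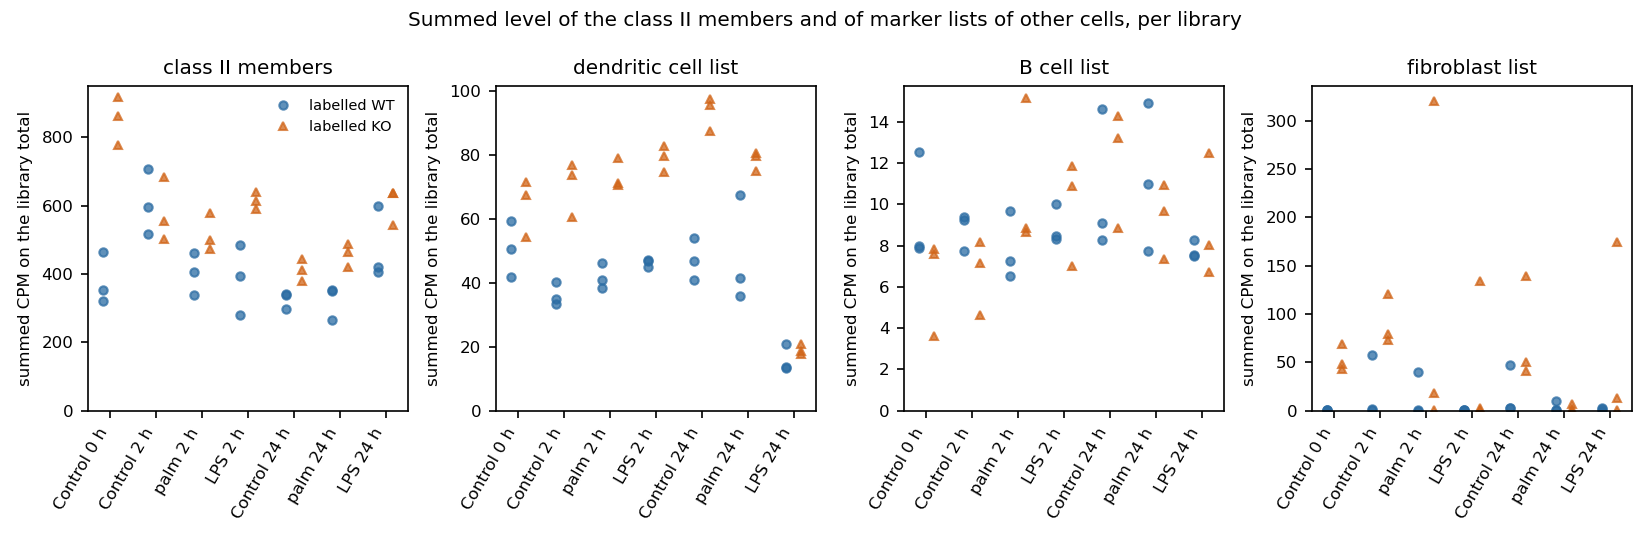
Summed CPM (on the library total, linear axes from 0) of the 7 class II genes and of the dendritic cell, B cell and fibroblast marker lists, 1 point per library, circles for WT and triangles for KO. At Control 0 h the class II sums are 321 to 465 in WT and 777 to 918 in KO, and the fibroblast sums 0.387 to 0.883 and 42.8 to 69.4.

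Other genes of the class II pathway were compared between the labels at Control 0 h as well. Of 19 further pathway genes listed, 14 were tested, and 0 were called higher and 4 lower in KO, where 6.40% of all genes were called higher and 6.06% lower. The genes called lower were Cd44, a partner of CD74 (log2 −0.50), March1, the ubiquitin ligase that removes class II from the surface (−0.44), and the endosomal proteases Ctsb (−0.29) and Ctsd (−0.21). Among the 7 genes of the promoter complex, namely the RFX subunits, the NF-Y subunits and Creb1, the lowest adjusted p was 0.230 (edgeR). Of the 11 genes that induce Ciita or carry the interferon gamma signal, Jak2 alone was called higher (log2 0.32), near the 6.40% of all genes. Of 4 repressors, Tgfb1 (−0.33, edgeR adjusted p = 0.00396) and Prdm1, which encodes BLIMP-1 (−0.46, edgeR adjusted p = 0.00793), were called lower, against 6.06% of all genes. The part of these genes in the level of Ciita was not tested.

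No such difference was detected in the Control libraries at 2 h. Cd74 stood at 291, 416 and 328 CPM in WT and at 390, 322 and 281 in KO, and Ciita at 4.06, 7.11 and 6.22 CPM in WT and 6.51, 5.73 and 7.97 in KO. The groups overlapped for all 7 genes, with log2 differences from −0.30 to 0.20, while 7.70% of all genes lay higher and 9.25% lower in KO without overlap. No member was called at Control 2 h (edgeR; 0 at an unadjusted p under 0.05 and 0 by DESeq2), and 0.490% of all genes were called. For the 5 genes called at 0 h, the log2 difference measured then lay above the 95% interval at 2 h, which was −0.36 to 0.23 for Cd74 and −0.46 to 0.87 for Ciita.

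Each label was therefore followed over time in Control medium, comparisons that were added after the difference at 0 h had been seen and that share the 0 h libraries with it. In WT, 4 of 7 genes rose from 0 to 2 h, against 8.41% of all genes. H2-Eb1 rose by 0.87 on the log2 scale (SE 0.18, adjusted p = 0.000277), from 30.3 ± 7.18 to 54.7 ± 6.38 CPM (SD, n = 3 each). H2-Aa rose by 0.81 (adjusted p = 0.000733), H2-Ab1 by 0.79 (0.000176) and Cd74 by 0.61 (0.00266), by the edgeR test, the call of Cd74 being lost without WT Control 2 h library 2. H2-Ab1, H2-Eb1 and Cd74 did not overlap between the times, against 16.2% of all genes with 2 h above 0 h.

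In KO the direction was the opposite. Ciita fell by 1.70 on the log2 scale (SE 0.30, edgeR adjusted p = 2.21e-05), from 25.5, 12.2 and 28.4 CPM at 0 h to 6.51, 5.73 and 7.97 at 2 h. H2-Ab1 fell by 0.63 (adjusted p = 0.0023) and Cd74 by 0.54 (adjusted p = 0.00773), a call lost without KO library 3 of either time. These were 3 of 7 genes called lower, against 5.59% of all genes, and all 7 lay lower at 2 h without overlap, against 13.6%. The coactivator had the largest fall of the 7.

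The test of the difference itself, an interaction of label and time, passed for 5 of 7 genes, all of them lower in KO relative to WT, against 2.55% of all genes. The log2 difference was −2.09 for Ciita (SE 0.45, adjusted p = 0.00298), −1.42 for H2-Ab1 (SE 0.22, 3e-05), −1.30 for H2-Eb1 (SE 0.24, 0.000676), −1.26 for H2-Aa (SE 0.25, 0.00105) and −1.15 for Cd74 (SE 0.21, 0.000388). H2-DMa (−0.84, adjusted p = 0.159) and H2-DMb1 (−0.37, adjusted p = 0.461) did not pass. Averaged over both labels, Ciita alone was called lower at 2 h (−0.65, adjusted p = 0.0393), against 7.36% of all genes, and this call was lost in 7 of the fits that left out a library. Of the 14 further pathway genes, Cd44 (0.51) and Ctsb (0.24) passed the interaction in the other direction, against 2.22% of all genes.

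At 24 h the class II genes of KO were again below their level at 0 h. H2-Ab1 went from 153 ± 14.8 CPM at 0 h to 63.0 ± 5.66 at 24 h (SD, n = 3 each), and Cd74 from 482 ± 42.6 to 230.5 ± 14.4. H2-Eb1 went from 67.5, 61.6 and 75.4 CPM to 22.3, 29.2 and 32.4. The log2 fold changes were −1.27 for H2-Ab1, −1.26 for H2-Eb1, −1.06 for Cd74, −1.01 for H2-Aa and −1.44 for Ciita. These 5 were called lower, against 4.46% of all genes, and the highest adjusted p of the 5 was 0.000388 (edgeR, for Ciita). All 7 genes were lower at 24 h in KO without overlap, against 12.1%.

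In WT no gene was called at 24 h (edgeR; 2 of 7 at an unadjusted p under 0.05 and 0 by DESeq2), where 12.1% of all genes were called. H2-Eb1 (−0.44, adjusted p = 0.148) and Cd74 (−0.41, adjusted p = 0.0776) had the lowest unadjusted p. The interaction at 24 h passed for H2-Ab1 (−0.98, SE 0.23, adjusted p = 0.0159) and Ciita (−1.89, SE 0.45, adjusted p = 0.0165), against 0.946% of all genes called lower, and leaving out 1 library gave 0 to 2 such genes, with 0 of 7 called without WT or KO Control 0 h library 3. Over both labels H2-Aa (−0.65), H2-Ab1 (−0.78), H2-Eb1 (−0.85) and Cd74 (−0.73) were called lower at 24 h, against 8.62% of all genes. H2-DMa and H2-DMb1 were not called in any comparison of times in Control.

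**Figure D4:**
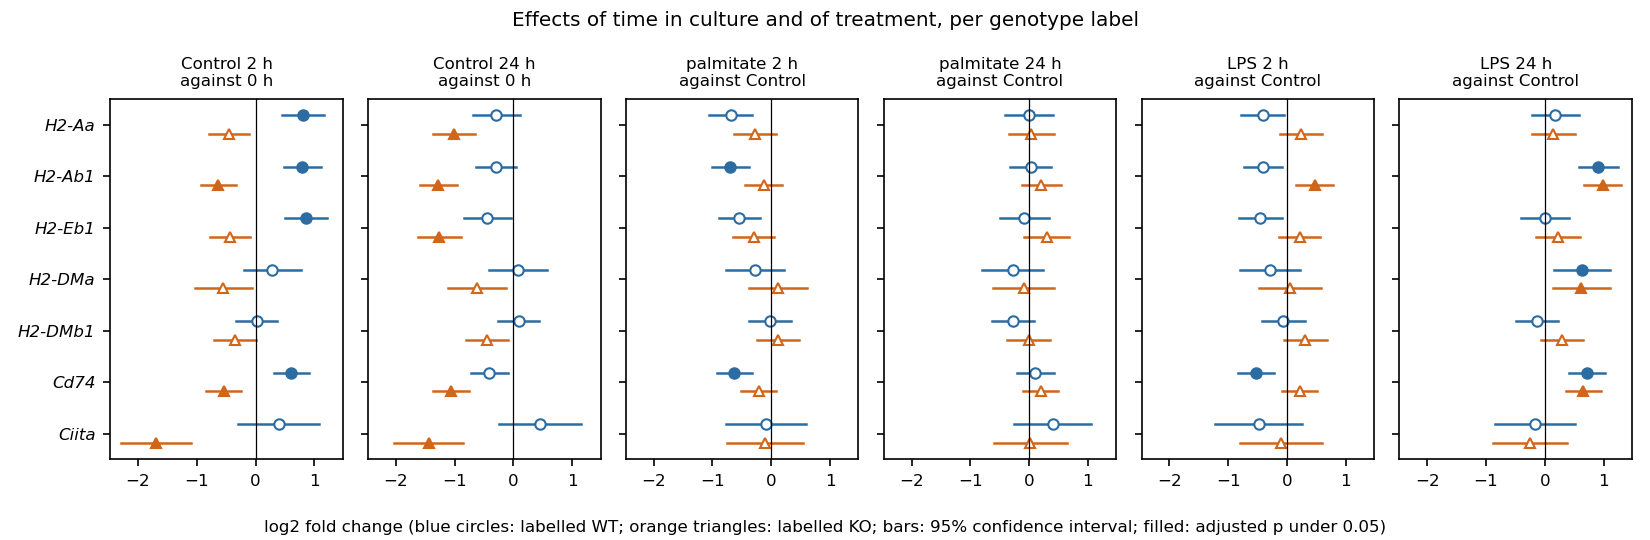
Log2 fold change of each class II gene over time in Control medium and after palmitate or LPS, blue circles for libraries labelled WT and orange triangles for KO, with 95% confidence intervals and filled points for an adjusted p under 0.05. From 0 to 2 h the filled WT points lie above 0 and the filled KO points below it, and at LPS 24 h the filled points of both labels are H2-Ab1, H2-DMa and Cd74, all above 0.

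LPS is the ligand of TLR4 and a standard activator of macrophages. After 24 h of LPS H2-Ab1, H2-DMa and Cd74 were higher under both labels, beside 19.6% of all genes called higher in WT and 19.9% in KO. H2-Ab1 was at 59.0, 47.7 and 56.2 CPM in WT Control and at 81.8, 134 and 88.9 after LPS (1.88-fold, log2 0.91, SE 0.16, edgeR adjusted p = 8.93e-06). In KO it was at 59.8, 59.6 and 69.5 CPM in Control and at 134, 135 and 108 after LPS (1.98-fold, log2 0.99, SE 0.16, edgeR adjusted p = 9.82e-07). The LPS libraries of both labels all lay above their Control libraries. At Control 0 h the mean of H2-Ab1 was 66.7 CPM in WT and 153 in KO, against 102 and 126 after 24 h of LPS. For Cd74 these means were 227 and 482 against 281 and 364, and for H2-DMa 10.7 and 15.6 against 17.6 and 15.8.

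Cd74 rose by 0.72 on the log2 scale in WT (SE 0.15, edgeR adjusted p = 0.000141) and 0.65 in KO (SE 0.15, adjusted p = 0.00032), and H2-DMa by 0.64 (SE 0.24, adjusted p = 0.0277) and 0.62 (SE 0.24, adjusted p = 0.036). The partner chain of H2-Ab1 did not pass. H2-Aa was at 32.8, 23.3 and 24.8 CPM in WT Control and 24.6, 39.2 and 25.9 after LPS, and at 35.1 ± 4.89 and 39.4 ± 1.79 in KO (SD, n = 3 each). Its 95% interval on the log2 scale was −0.22 to 0.58 in WT and −0.22 to 0.52 in KO. H2-Eb1, H2-DMb1 and Ciita did not pass either. H2-Ab1, H2-DMa and Cd74 lay higher after LPS without overlap, against 24.3% of all genes in WT and 24.7% in KO. The calls of H2-DMa were lost under each label in 3 of the 6 fits that left out a library. Ciita was at 5.93 ± 1.40 CPM in WT Control and 5.45 ± 2.16 after LPS, and at 7.93 ± 1.52 and 6.86 ± 2.38 in KO. No member passed the interaction of label and LPS at 24 h (edgeR; 0 at an unadjusted p under 0.05 and 0 by DESeq2), where 0.00860% of all genes were called, in either direction.

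After 2 h of LPS 1 of 7 members was called under each label, near the share of all genes called in that direction. In WT, Cd74 fell by 0.52 on the log2 scale (SE 0.15, edgeR adjusted p = 0.00746), against 9.10% of all genes called lower. Its libraries were at 291, 416 and 328 CPM in Control and 166, 298 and 246 after LPS, which overlap, and the call was lost without Control library 2 or LPS library 1. In KO, H2-Ab1 rose by 0.47 (SE 0.16, edgeR adjusted p = 0.0198), against 14.7% called higher, from 118, 87.7 and 91.1 CPM in Control to 125, 145 and 139 after LPS, a call lost in 5 of 10 alternatives. Before treatment, at Control 0 h, the mean was 227 CPM for Cd74 in WT and 153 for H2-Ab1 in KO. WT LPS library 1 was the lowest of its group for H2-Aa, H2-Ab1, H2-DMa, H2-DMb1 and Cd74. The interaction was not called for any member (edgeR; 4 of 7 at an unadjusted p under 0.05 and 0 by DESeq2), and 0% of all genes were called in it. Its log2 difference was 0.88 for H2-Ab1 (adjusted p = 0.284) and 0.74 for Cd74 (adjusted p = 0.342), and with all genes of at least 1 count tested these 2 passed.

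Between the labels after 2 h of LPS, H2-Ab1 and Cd74 were higher in KO, against 0.301% of all genes. Cd74 was at 166, 298 and 246 CPM in WT and 358, 408 and 386 in KO (log2 0.68, SE 0.15, edgeR adjusted p = 0.0197). H2-Ab1 was at 55.8, 111 and 84.9 CPM in WT and 125, 145 and 139 in KO (log2 0.67, SE 0.16, edgeR adjusted p = 0.034). H2-Aa did not overlap either, at 32.2–54.7 CPM in WT and 57.3–74.0 in KO (adjusted p = 0.179), and 7.03% of all genes had KO above WT without overlap. These calls were unsteady, with 0 to 3 members called when 1 library was left out, and H2-Ab1 lost its call in 6 of 10 alternatives and Cd74 in 4, among them the fits without WT libraries 1 or 3 and KO libraries 2 or 3. Itgax also differed there (log2 0.75, adjusted p = 0.0235), with dendritic cell sums of 45.0–47.1 CPM in WT and 74.8–82.8 in KO. Granulocyte sums were 39.7–59.1 CPM in WT and 106–181 in KO, with 2 of the 5 tested called higher (Ngp and Ltf), against 0.301% of all genes. Macrophage sums, in which Lyz2 weighs most, were 12174–12957 CPM in WT and 9154–9979 in KO. Itgam was called higher and Lyz2 lower, against 0.301% and 0.163% of all genes. Fibroblast sums were 0.333–0.647 CPM in WT and 0.702, 134 and 2.73 in the KO libraries. Their part in the result was not tested.

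In the other 4 conditions no member was called between the labels. At palmitate 24 h, 4 of 7 genes lay higher in KO without overlap, against 6.46% of all genes, with log2 differences of 0.74 for H2-Eb1 (adjusted p = 0.177), 0.52 for Cd74 (0.282), 0.48 for H2-Aa (0.528) and 0.41 for H2-Ab1 (0.528), all by edgeR. All 4 had an unadjusted p under 0.05, 0 were called by DESeq2, and 0.0688% of all genes were called. At palmitate 2 h, Control 24 h and LPS 24 h the numbers at an unadjusted p under 0.05 were 2, 2 and 4 of 7, with 0 called by edgeR and 0 by DESeq2. The share of all genes called was 0.146%, 0.120% and 0.146% in that order. Member differences in these conditions ran from −0.29 to 0.58 on the log2 scale.

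Class II genes were called after palmitate in 1 of 4 comparisons. In WT at 2 h, H2-Ab1 fell by 0.70 (SE 0.16, edgeR adjusted p = 0.0254) and Cd74 by 0.63 (SE 0.15, edgeR adjusted p = 0.0458), against 0.172% of all genes. H2-Ab1 was at 107, 124 and 112 CPM in Control and 64.5, 71.8 and 75.2 after palmitate. Before treatment, at WT Control 0 h, the mean was 66.7 CPM for H2-Ab1 and 227 for Cd74. After palmitate it was 70.5 and 223, and in Control at 2 h 114 and 345. H2-Ab1, Cd74, H2-Aa and H2-Eb1 lay lower without overlap, against 7.48%. The call of H2-Ab1 did not survive the removal of any single library of the 6, and that of Cd74 was lost in 4 of these fits, with RLE size factors and by DESeq2. In KO at 2 h, and under both labels at 24 h, no member was called (edgeR; 0 at an unadjusted p under 0.05 and 0 by DESeq2). All genes called there were 0.112% in KO at 2 h, 0.852% in WT at 24 h and 0.877% in KO at 24 h, in either direction. No member passed an interaction of label and palmitate at 2 h (edgeR; 1 at an unadjusted p under 0.05) or 24 h (0), with 0 by DESeq2 and 0% of all genes called at both times. These comparisons share their Control libraries with those of LPS, and the Control 2 h libraries also enter the changes from 0 to 2 h.

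Set against each other as an average over both labels, the treatments differed for the same pair of genes at both times. At 2 h H2-Ab1 (log2 0.44, adjusted p = 0.00141), H2-Aa (0.40, adjusted p = 0.0135) and Cd74 (0.27, adjusted p = 0.0477) were higher after LPS than after palmitate, against 19.2% of all genes, though the call of Cd74 was lost in 9 of 16 alternatives. At 24 h H2-Ab1 (0.83, adjusted p = 1.15e-08), H2-DMa (0.81, adjusted p = 6.41e-05) and Cd74 (0.53, adjusted p = 2.9e-05) were, against 25.4%. For the genes called at 2 h, the libraries of the treatments overlapped in WT at that time and did not in KO. H2-Ab1 was at 55.8–111 CPM after LPS and 64.5–75.2 after palmitate in WT, and at 125–145 and 80.1–103 in KO. Cd74 was at 166–298 and 175–266 CPM in WT, and at 358–408 and 266–311 in KO. Whether LPS and palmitate differed by label was not tested. Between 2 and 24 h of LPS 3 of 7 members were called, a smaller share than the 60.5% of all genes called in either direction. By the edgeR test H2-Eb1 fell by 0.84 (adjusted p = 4.19e-07) and H2-Aa by 0.58 (adjusted p = 0.000151), against 29.9% of all genes. H2-DMa rose by 0.61 (edgeR adjusted p = 0.00234), against 30.5%.

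Among the further pathway genes, Cd83, which protects class II from MARCH1, was at 43.8 ± 7.36 CPM in WT Control and 337 ± 15.1 after 2 h of LPS (log2 2.94), while March1 went from 70.6 ± 3.37 to 35.5 ± 4.07 (log2 −1.01), SD and n = 3 each. At 24 h both were the other way about, with log2 fold changes of −1.99 for Cd83 and 1.47 for March1 in WT and −2.18 and 1.23 in KO. Of the 14 further pathway genes tested, 2 rose and 1 fell at 2 h in WT, where 23.1% of all genes changed in either direction, and 2 rose and 3 fell in KO, where 23.9% did. At 24 h 6 rose and 4 fell in WT and 5 rose and 4 fell in KO, where 39.5% and 40.9% of all genes changed.

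Of the 11 inducers of Ciita, 6 rose and 2 fell at 2 h under each label, and at 24 h 6 rose under each, while 1 fell in WT and 2 in KO. In either direction that is 8 of 11 under each label at 2 h, against 23.1% of all genes in WT and 23.9% in KO, and 7 of 11 in WT and 8 of 11 in KO at 24 h, against 39.5% and 40.9%. Irf1, a direct activator of Ciita, rose by a log2 fold change of 3.31 in WT and 3.29 in KO at 2 h. Irf8 fell at 2 h, by 0.96 in WT and by 1.10 in KO. The repressor gene Prdm1 rose at 2 h (2.44 in WT and 2.51 in KO) and fell by 1.05 in WT and by 0.94 in KO at 24 h. Ciita itself was at 4.12 ± 1.55 CPM in WT and 6.41 ± 1.48 in KO after 2 h of LPS, which rest on 11 to 34 counts.

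The chains and Cd74 also varied together between libraries of the same group, and the H2-DM genes and Ciita less so. With each library set against its group mean on the log2 CPM scale, Pearson's r over the 42 libraries was 0.89 for H2-Ab1 and Cd74, 0.84 for H2-Aa and Cd74, and 0.77 for H2-Aa and H2-Ab1. The lowest r among the chains and Cd74 was 0.62, for H2-Aa and H2-Eb1. For H2-DMa and H2-DMb1, r with the chains, Cd74 and each other was 0.24 to 0.56. For Ciita, with few counts, r with the other 6 was 0.11 to 0.43. The points of a pair come from the same libraries and share their depth, so these are descriptions. Over the 14 group means, Cd74 followed the mean of the other members most closely (r = 0.94) and Ciita least (r = 0.46).

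Over the 9099 genes averaging 5 CPM or more, those outside the list whose group means followed those of the members most closely were Cic (r = 0.84), Fam120b (0.78), Spg7 (0.77), Zfp236 (0.77) and Cbx1 (0.76). For Ciita they were Olfm1 (r = 0.87), Sorl1 (0.87), Lats2 (0.85), Pop5 (0.84) and Mrps6 (0.83). Group means of the same 14 groups enter every r. The other class II chain genes were scarce, with at most 14 counts in any library for H2-DMb2, 22 for H2-Oa and 12 for H2-Ob. H2-DMb2 is a near copy of H2-DMb1, and reads they share could be counted under either.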

How the data were processed

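RNA-seq of BMDM was analysed from a table of raw counts per gene, deposited by the authors without normalisation. Libraries were stranded, ribodepleted total RNA, made with a kit for low input and sequenced in paired ends. Per the labels and the study's methods, the authors used fastp 0.19.11 and STAR 2.7.3a on mm10; the annotation release and the strand setting of the counting are not given in the sources used here. Columns carry the group but no replicate number, so libraries are numbered 1 to 3 by column and these numbers pair no samples. No pair of libraries in a group was identical, and all 42 pairs differed by more than sampling noise (chi-square per degree of freedom 1.93 to 9.32). The total per library was 2848793 to 7743442 counts (median 5625399); floors and intervals of counts cover counting error only.

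In R 4.3.3, edgeR 4.0.16 was run on the counts of the 42 libraries with TMM scaling, filterByExpr and 1 mean per group. The quasi-likelihood F test gave p-values for each contrast, which were adjusted by Benjamini-Hochberg for all 11624 genes kept. A gene was called below 0.05. The SE was obtained from the log2 fold change and F. Expression levels are TMM-scaled CPM, and marker sums are CPM on the library total. The 26 comparisons planned were followed by 4 of time within a label, added after the difference at Control 0 h was seen. Alternatives were RLE size factors, all genes with at least 1 count, only the libraries compared, DESeq2 1.42.0, the study's threshold for the labels, and each library left out. On simulated counts for Control 0 h (11358 genes, 195 changed), 88.2% of changed genes were recovered, 84.2% of those changed by 2-fold and 92% of those changed by 4-fold, and 6.52% of calls were false.

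The members and all lists were chosen with earlier results of these data known. All members are named. Of each list at most 4 genes per comparison are, those called with the smallest adjusted p at a mean of at least 5 CPM, beside genes that check labels or cell types and those with the most similar group means. Marker genes named for their low counts were chosen after their values were seen, and of the dendritic cell and fibroblast lists all genes are named. Exon lengths and positions come from the GENCODE annotation of GRCm38. The promoters of H2-Ab1, Cd74 and Ciita were not used here.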

Additional observations from a re-analysis of the deposited data

Results flagged for a closer look

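The change of 5 class II genes over time in Control medium differed between the genotype labels by the interaction test, which is what set them apart. From 0 to 2 h the log2 fold change was lower in libraries labelled KO than in WT by −1.26 for H2-Aa, −1.42 for H2-Ab1, −1.30 for H2-Eb1, −1.15 for Cd74 and −2.09 for Ciita (edgeR quasi-likelihood F test, adjusted p from 3e-05 to 0.00298). All these contrasts use the same Control 0 h libraries, and the level of the 5 genes in KO at 0 h, as the report gives it, enters each of them. From 0 to 24 h the same test passed for H2-Ab1 (−0.98, adjusted p = 0.0159) and Ciita (−1.89, adjusted p = 0.0165). Fibroblast genes summed to 0.387–0.883 CPM in WT and 42.8–69.4 in KO at 0 h, and to 1.16–58.0 and 72.8–121 at 2 h; their part in the result was not tested.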

How the results depend on the processing

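No paired analysis was possible because the columns carry no replicate numbers, so no replicate block could be fitted. The 5 genes called between the labels at Control 0 h and the 5 called in the interaction with time at 2 h kept their direction and their call in every fit that gave an adjusted p. Over all 210 differences of the 7 members, the 50 called kept their direction in all alternatives; 54 others, called under no setting and between −0.30 and 0.34 on the log2 scale, changed sign in at least 1 and have their difference given above only within a range or as an interval, beside group levels. Of 2544 alternative values for single members, 2298 kept their direction and their side of the threshold, 66 gained the call, 62 lost it and 118 changed sign. DESeq2 gave no adjusted p for 18 values.

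Counts of members called moved as follows, and the cause was not tested. With all genes of at least 1 count tested, the counts between the labels went from 0 to 2 (palmitate 2 h), 2 to 4 (LPS 2 h), 0 to 1 (Control 24 h), 0 to 3 (palmitate 24 h) and 0 to 2 (LPS 24 h). In WT they went from 2 to 4 for palmitate 2 h, 1 to 4 for LPS 2 h and 0 to 2 for Control 24 h against 0 h, and in KO from 1 to 2 for LPS 2 h and 3 to 5 for Control 2 h against 0 h. The interactions went from 0 to 2 for palmitate 2 h and for LPS 2 h, and from 2 to 5 for time at 24 h. With only the libraries compared in the fit, counts were 1 between the labels at LPS 2 h and at Control 24 h, 2 at palmitate 24 h, 4 for WT palmitate 2 h and WT LPS 2 h, 6 for KO Control 2 h against 0 h, 3 for WT 24 h against 0 h and 5 for the interaction at 24 h. DESeq2 called 1 between the labels at LPS 2 h, 1 for WT palmitate 2 h, 0 for KO LPS 2 h and 1 for the interaction at 24 h, RLE gave 1 for WT palmitate 2 h, and the study's threshold gave 0 at LPS 2 h.

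Leaving out 1 library gave 0 to 3 members called between the labels at LPS 2 h, 0 to 2 for WT palmitate 2 h, 0 to 4 for WT LPS 2 h, 2 to 3 for WT LPS 24 h, 0 to 1 for KO LPS 2 h, 2 to 4 for KO LPS 24 h, 0 to 1 for Control 2 h against 0 h over both labels, 2 to 4 in KO, 0 to 1 for WT Control 24 h against 0 h, 0 to 2 for the interaction at 24 h and 1 to 4 for LPS against palmitate at 2 h. With CPM on the library total, 94 of 98 group levels moved by less than their SD. Depth limits Ciita most, with 11 to 79 counts in every library outside KO Control 0 h.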
